A study of Mus musculus with 6 samples.

Results

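mt-Atp8 and mt-Nd4l are short protein-coding genes of mouse mitochondrial DNA, and their reading frames overlap those of the next gene downstream. They were taken by gene identifier from an FPKM table of 680 genes and are the only 2 of the 37 annotated mitochondrially encoded genes, and of the 13 that encode protein, analysed here. RNA was sequenced from MC3T3, a mouse pre-osteoblast line that the labels place under bone and stem cells. In 3 libraries the cells had been given exosomes (small vesicles) of HUVEC, primary human umbilical vein endothelial cells, for 48 hours, and in 3 control libraries they were untreated. Both groups grew in MEM-α with fetal bovine serum, and the labels name no genetic change in either. FPKM scales fragment counts to exon length and library size, so that genes of different length can be set side by side. How well that holds for genes this short, which share bases with other loci, was not tested.

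The mitochondrial genome is transcribed as long RNAs that carry many genes in a row, and transfer RNAs between the coding genes mark where these RNAs are cut. mt-Atp8 stays joined to mt-Atp6 in 1 mature mRNA and mt-Nd4l to mt-Nd4 in another. ATP8 is a small membrane subunit of ATP synthase, the enzyme that makes ATP from the proton gradient. ND4L is a small membrane subunit of complex I, the NADH dehydrogenase at the start of the respiratory chain that helps build that gradient.

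In GRCm38, mt-Atp8 (ENSMUSG00000064356) covers 204 bases of the plus strand of mitochondrial DNA, from 7766 to 7969, and mt-Nd4l (ENSMUSG00000065947) covers 297 bases from 9877 to 10173. Each is a single exon without introns, and 1907 bases lie between them. Both are shown 5′ to 3′, as GENCODE M21 gives the transcripts, because reads from their shared and copied stretches also match other loci. Capitals mark the bases that also belong to mt-Atp6 in the first and to mt-Nd4 in the second.
mt-Atp8: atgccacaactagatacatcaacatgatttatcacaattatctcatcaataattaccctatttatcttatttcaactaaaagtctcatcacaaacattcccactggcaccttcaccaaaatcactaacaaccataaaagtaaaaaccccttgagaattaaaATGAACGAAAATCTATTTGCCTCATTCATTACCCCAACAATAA
mt-Nd4l: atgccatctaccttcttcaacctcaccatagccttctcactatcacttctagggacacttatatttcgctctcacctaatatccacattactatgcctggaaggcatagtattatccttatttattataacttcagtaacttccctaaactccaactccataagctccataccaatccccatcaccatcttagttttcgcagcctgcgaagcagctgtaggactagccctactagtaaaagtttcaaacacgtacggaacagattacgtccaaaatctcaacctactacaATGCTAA

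The overlap with mt-Atp6 takes 43 bases, or 21.1%, of mt-Atp8. That with mt-Nd4 takes 7 bases, or 2.36%, of mt-Nd4l. The frame of mt-Atp8 has 67 codons before its stop and that of mt-Nd4l has 98. In mt-Atp8, 3 in-frame TGA codons, a stop signal in the standard code, are read as tryptophan by mitochondrial ribosomes, and mt-Nd4l has 0. A makes up 40.7% of mt-Atp8 and 30.0% of mt-Nd4l. G and C together make up 31.9% of the first and 41.1% of the second.

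Both genes lie in a stretch of mitochondrial DNA whose coding genes, apart from most of mt-Atp8, have annotated copies in the nucleus, whole or in part. On the minus strand of chromosome 1, from 24611535 to 24616197 in GRCm38, 7 unprocessed pseudogenes matched mt-Co1, mt-Co2, mt-Atp6, mt-Co3, mt-Nd3, mt-Nd4l and mt-Nd4 at 99.7% to 100% identity. The copy of mt-Nd4l, Gm10222, was identical over 294 of its 297 bases. Reads from within those bases cannot be assigned to mitochondrial or nuclear DNA by their sequence. For mt-Atp8, the last 43 bases were identical in Gm10925, the copy of mt-Atp6. No annotated pseudogene covers the other 161 bases there, but 233 bases separate Gm10925 from Gm28661, the copy of mt-Co2, and the matching ends in mitochondrial DNA are also 233 bases apart. The sequence of that interval was not used here. The best annotated match across most of mt-Atp8 was Gm28925, elsewhere on chromosome 1, at 81.4% identity over 167 bases. Of the 7 copies, 0 are among the genes analysed here, and the part that reads shared with them play in the values below was not tested.

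**Figure D1:**
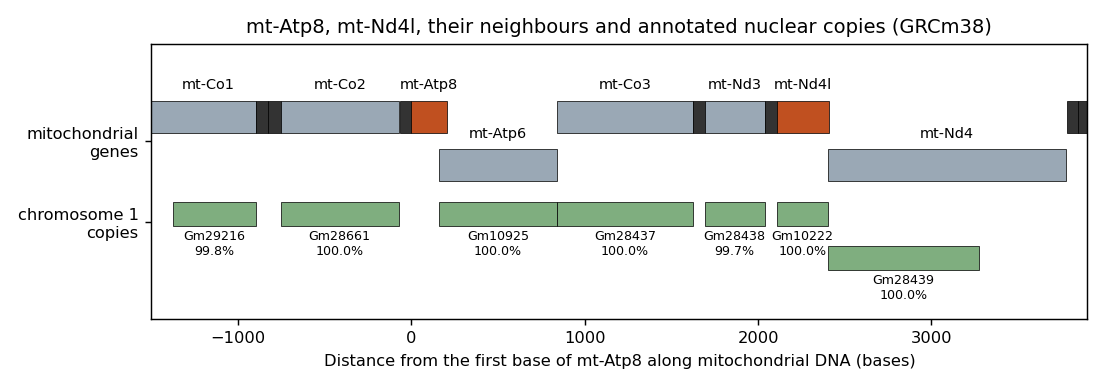
Genes of mitochondrial DNA around mt-Atp8 and mt-Nd4l (orange; other coding genes grey, transfer RNAs black, mt-Co1 cut at the left edge) and the stretches matched by annotated chromosome 1 pseudogenes (green, with percent identity), by distance in bases from the first base of mt-Atp8. Gm10222 covers 294 of the 297 bases of mt-Nd4l, and none of the 7 pseudogenes drawn covers the first 161 bases of mt-Atp8.

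The table was made by the authors from genes they had called changed on these same libraries, so both genes had been selected for a difference before any test made here, and the adjusted p-values below are too small as measures of significance. The labels call the libraries biological repeats without naming separate cultures, so the spread behind each p-value may be technical. The value of 1 read, recovered from FPKM and exon length, gave depths of 39630444 to 54429032 reads, with a mean 1.20 times as high in the exosome as in the control group. Of 12 osteoblast lineage markers, only Dmp1 is among the genes analysed here, so the labelled cell type could not be checked further. Of the markers of other cell types, 0 of 8 for endothelium, 0 of 6 for leukocytes and macrophages, 0 of 4 for fat, 1 of 5 for muscle and 1 of 4 for cartilage were analysed. In bulk RNA, fewer cells of a type and less RNA per cell cannot be told apart.

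mt-Atp8 had 842, 116 and 60.3 FPKM in exosome libraries 1, 2 and 3, against 37.2, 13.3 and 112 FPKM in control libraries 1, 2 and 3. Exosome library 1 stood far above the rest. Control library 3 lay beside exosome library 2 and above exosome library 3, so the groups overlapped. The mean was 339 ± 436 FPKM with exosomes and 54.3 ± 51.7 FPKM in controls (SD, n = 3 each), a 6.25-fold ratio of means but a 3.12-fold ratio of medians. In each group the SD was about as large as the mean. The highest value was 14.0 times the lowest within the exosome group and 8.46 times within the control group. Of the 9 pairs of an exosome with a control library, the exosome library was higher in 8.

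mt-Nd4l had 185, 55.4 and 218 FPKM in exosome libraries 1, 2 and 3, against 56.8, 27.7 and 38.9 FPKM in control libraries 1, 2 and 3. Exosome libraries 1 and 3 were above every control, while exosome library 2 was just below control library 1. The mean was 153 ± 85.9 FPKM with exosomes and 41.2 ± 14.7 FPKM in controls (SD, n = 3 each), a 3.71-fold ratio of means and a 4.75-fold ratio of medians. The exosome library was again higher in 8 of the 9 pairs. The highest value was 3.94 times the lowest within the exosome group and 2.05 times within the control group.

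**Figure D2:**
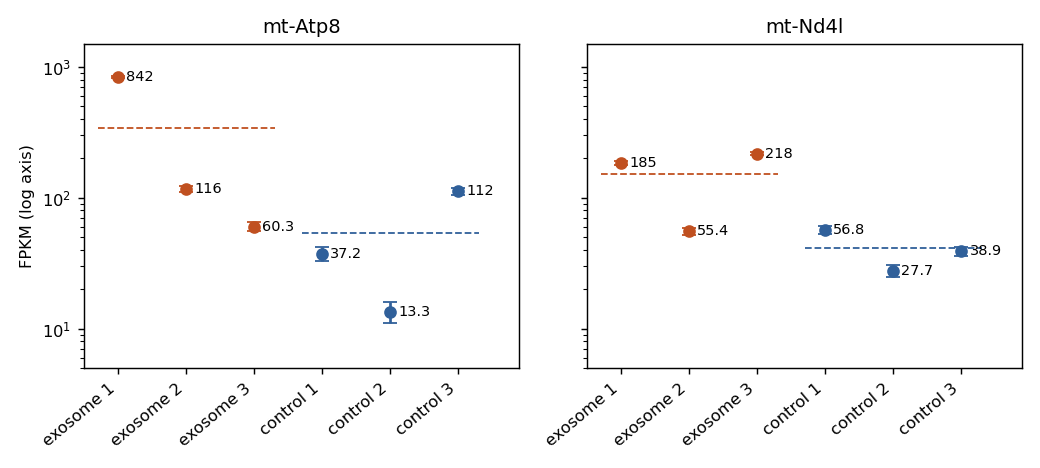
FPKM (log axis) of mt-Atp8 and mt-Nd4l in each exosome (orange) and control (blue) library; bars are 95% Poisson intervals of the recovered reads, which cover counting error only, and dashed lines are group means. mt-Atp8 was 842 in exosome library 1 and 13.3 in control library 2, and for both genes exosome library 2 lay within the range of 1 control library's counting error.

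These levels were high within the table. By mean FPKM, mt-Atp8 ranked 3 of 680 with exosomes and 10 in controls, and mt-Nd4l ranked 7 with exosomes and 13 in controls. In exosome library 1, mt-Atp8 had the highest FPKM of all 680 genes, and it ranked 8 and 15 in exosome libraries 2 and 3, against 12, 23 and 7 in control libraries 1, 2 and 3. mt-Nd4l ranked 6, 14 and 4 in the exosome libraries and 8, 15 and 14 in the control libraries.

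The values rested on 118 to 8949 reads. mt-Atp8 rested on 8949, 1289 and 631 reads in the exosome libraries and on 301, 118 and 1108 in the control libraries. mt-Nd4l rested on 2862, 895 and 3322 reads in the exosome libraries and on 669, 359 and 559 in the control libraries. Among the 15 pairs of libraries, the exact 95% Poisson intervals of mt-Atp8 overlapped in 1, that of exosome library 2 (110 to 123 FPKM) with control library 3 (106 to 119 FPKM). For mt-Nd4l they also overlapped in 1 pair, exosome library 2 (51.8 to 59.1 FPKM) with control library 1 (52.6 to 61.3 FPKM). Of the 1691 values of 2 to 21 recovered reads in the table, 74.7% were even, so the mates of a pair may have been counted singly, and these intervals would then be too narrow. Of the 12 values of the members themselves, all above that range, 8 were odd, so how far this applies to them is not known.

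With limma on log2(FPKM + 1), the difference of mt-Atp8 was 2.20 ± 1.25 (SE; 95% interval −0.98 to 5.39) and did not pass a limit of 0.05 (limma adjusted p = 0.157). The difference of mt-Nd4l was 1.70 ± 0.60 (SE; unadjusted 95% interval 0.18 to 3.23) and missed the same limit narrowly (limma adjusted p = 0.0555). Ordered from the most positive log2 difference downwards, mt-Atp8 ranked 2 and mt-Nd4l ranked 3 of 680 genes, and the median gene differed by −0.13. The added 1 damps the differences of weak genes, so these ranks depend on level as well as on change. With 0.1 or 0.01 added instead, the median gene differed by −0.76 or −1.30. So 0 of the 2 genes were called, where 59.3% of the 680 genes were called in either direction and 15.4% as higher with exosomes. An exact two-sided permutation test of the 6 FPKM values gave p = 0.2 for each gene, with 0.1 the smallest p that 3 against 3 libraries allow. Across the table, the groups did not overlap in 86.9% of genes. Both members were among the other 89 genes, of which limma called 1.

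The call of mt-Nd4l depended on the setting. It passed in all 7 alternatives that kept the 6 libraries, at limma adjusted p = 0.0130 to 0.0484, each time in a table where many genes passed. A pseudocount of 0.1 called 77.6% of genes and one of 0.01 called 89.9%. A limit on the mean of 1 FPKM or more called 94.9% of 138 genes, a trended and robust prior 80.9%, and limma-voom on recovered reads 94.4% of 661 genes. Median centring, at 47.6%, and a replicate block, at 29.6%, called a smaller share than the 59.3% of the first fit. By limma adjusted p, mt-Nd4l ranked 317 and 184 of 680 in these fits, against 422 in the first. Without exosome library 2, the low one, mt-Nd4l differed by 2.32 ± 0.33 (SE, limma adjusted p = 0.0262), in a fit that called 24.1% of genes. Leaving out any other library gave limma adjusted p = 0.0774 to 0.146. mt-Atp8 passed in none of these settings, and its lowest limma adjusted p was 0.0538, from limma-voom. Its log2 difference was 1.10 without exosome library 1 and 1.47 without control library 2.

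**Figure D3:**
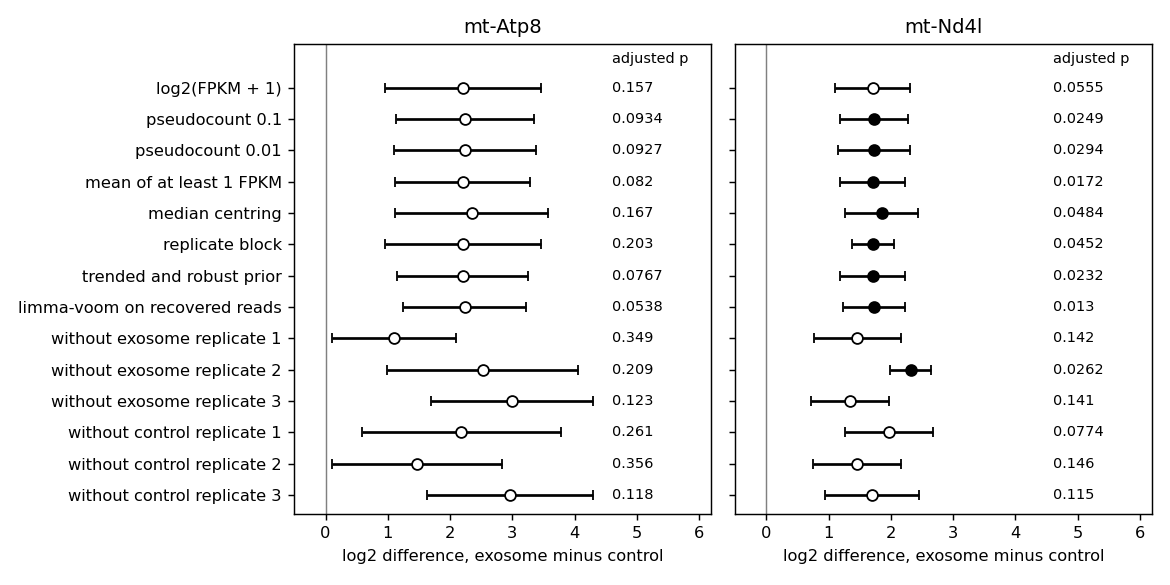
Log2 difference (exosome minus control, point) with its SE (bar) and limma adjusted p for both genes in each fit; filled points passed 0.05. Every point lies above 0; mt-Atp8 passed in no fit, and mt-Nd4l passed in 8 of the 13 alternatives.

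Few genes of the table varied as much between libraries of the same group. The pooled within-group SD of log2(FPKM + 1) was 1.75 for mt-Atp8, the largest of 680, and 0.84 for mt-Nd4l, the fourth largest, against a median of 0.08 over the table. Strongly expressed genes give a closer comparison, since the added 1 damps the spread of weak ones. For the 25 genes averaging 10 FPKM or more, the median was 0.36, and in the 23 of these without mt-Atp8 and mt-Nd4l the largest was 1.07. That value belonged to Sumo2, which encodes a small ubiquitin-like modifier. Gm14794, a weaker locus, came between Sumo2 and mt-Nd4l at 1.05.

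**Figure D4:**
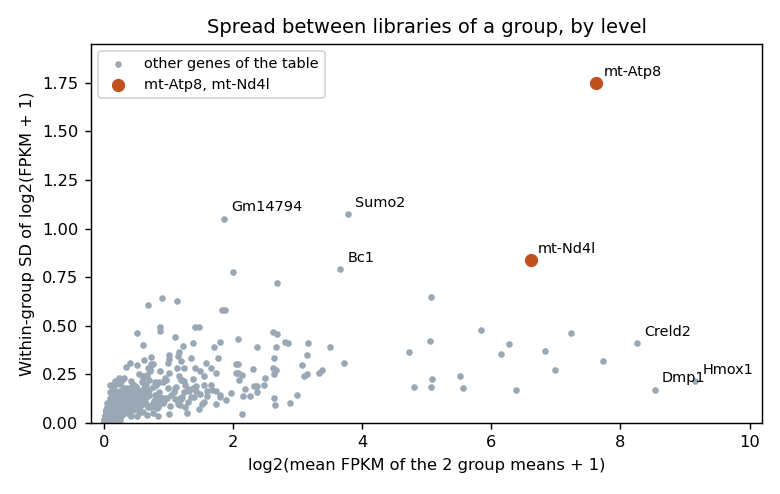
Pooled within-group SD of log2(FPKM + 1) against the log2 of the mean level plus 1, for the 680 genes. mt-Atp8, at 1.75, is the highest point, and mt-Nd4l, at 0.84, lies above other genes of its level.

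The 2 genes did not follow the same order across libraries. mt-Atp8 was highest in exosome library 1 and lowest among the exosome libraries in library 3, where mt-Nd4l had its highest value. Among the controls mt-Atp8 was highest in library 3 and mt-Nd4l in library 1, and both were lowest in control library 2. The FPKM of mt-Atp8 was 4.55, 2.10 and 0.277 times that of mt-Nd4l in exosome libraries 1, 2 and 3, against 0.655, 0.479 and 2.89 times in control libraries 1, 2 and 3. This ratio does not depend on how a library is scaled. It ran over a 16.5-fold range within the exosome group and a 6.03-fold range within the control group, and the groups overlapped. The log2 ratio averaged 0.47 ± 2.09 with exosomes and −0.05 ± 1.38 in controls (SD, n = 3 each). The difference of 0.52 was smaller than either SD (exact two-sided permutation p = 0.9) and turned to −0.34 without exosome library 1.

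**Figure D5:**
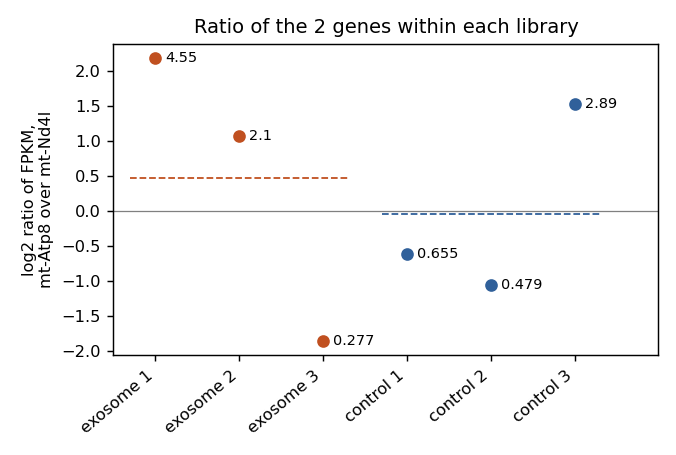
Log2 ratio of mt-Atp8 to mt-Nd4l FPKM in each exosome (orange) and control (blue) library, with group means as dashed lines and the linear ratio beside each point. Values above 0, where mt-Atp8 had the higher FPKM, occur in exosome libraries 1 and 2 and control library 3.

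Likeness to other genes was measured as the Pearson correlation of log2(FPKM + 1) over the 6 libraries, among 90 annotated genes that averaged 1 FPKM or more in their higher group. All of these genes were selected for a group difference, which is part of every r given here. The 5 genes most like mt-Atp8 were Fibin, a fin bud initiation factor gene, at r = 0.90, the antisense locus AV099323 at 0.88, the endoplasmic reticulum co-chaperone gene Dnajc3 at 0.82, the cytosolic chaperone gene Hsph1 at 0.78 and Creld2, the gene of the series title, at 0.77. Fibin had 1.77, 1.32 and 1.01 FPKM in exosome libraries 1, 2 and 3, against 0.601, 0.547 and 0.775 FPKM in control libraries 1, 2 and 3. Within each group this is the order of mt-Atp8, over a much narrower range and with groups that did not overlap. Creld2 had 443, 441 and 423 FPKM in the exosome libraries, against 155, 114 and 254 FPKM in the controls, so its exosome values lay close together where those of mt-Atp8 did not. After the group means were taken out, r with mt-Atp8 was 0.95 for Fibin, 0.89 for AV099323, 0.75 for Hsph1, 0.71 for Dnajc3 and 0.64 for Creld2. These values, like those for mt-Nd4l below, come from the same 6 libraries that picked the genes, so they are not separate evidence of likeness.

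The 5 most like mt-Nd4l were Gnat2, a cone transducin subunit gene, at r = 0.89, Hsph1 at 0.87, the cytochrome P450 gene Cyp2c23 at 0.86, the casein gene Csn3 at 0.83 and the aldo-keto reductase gene Akr1b7 at 0.82. Cyp2c23 had 7.34, 6.56 and 7.69 FPKM in the exosome libraries, against 3.40, 3.12 and 3.55 FPKM in the controls, with its lowest value of each group in library 2, as in mt-Nd4l. The correlation of mt-Atp8 with mt-Nd4l themselves was 0.60, which placed mt-Nd4l at 16 in the order for mt-Atp8 and mt-Atp8 at 29 in the order for mt-Nd4l. After the group means were taken out, it was 0.24. On that measure r with mt-Nd4l was 0.88 for Cyp2c23, 0.67 for Gnat2 and 0.62 for Hsph1, but 0.45 for Csn3 and 0.41 for Akr1b7, so the order of these 5 genes depended on the group difference.

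The rest of the mitochondrial programme gave nothing to set beside these genes. Of the 11 remaining mitochondrially encoded protein genes, the partners mt-Atp6 and mt-Nd4 included, and of the 24 ribosomal and transfer RNA genes, 0 are among the genes analysed here. The same holds for 225 symbols of nuclear genes: 37 of complex I, 18 of ATP synthase, 29 of complexes II, III and IV, 38 of mitochondrial transcription and RNA processing, 23 of mitochondrial stress and dynamics and 80 of the mitochondrial ribosome. GENCODE M21 knows 218 of these symbols. Since the table holds selected genes, this says nothing about the level of the others. It does place mt-Atp6 and mt-Nd4 outside the genes the authors listed as changed, though each shares a mature mRNA with a member. Whether these mRNAs changed as a whole was not tested.

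Other short genes of the table went in both directions. Of the 81 genes with at most 600 exon bases, both members included, the exosome mean was above the control mean in 32 and below it in 49, with a median log2 difference of −0.31 and a median within-group SD of 0.24. Over all 680 genes the exosome mean was above the control mean in 177 and below it in 503, with a median log2 difference of −0.13 and a median within-group SD of 0.08. Of the 81 short genes, 54 were called by limma, or 66.7%, against 59.3% of the 680 genes. The other 4 short coding genes averaging 1 FPKM or more in their higher group were weaker and went both ways. Gm10073 averaged 12.5 FPKM with exosomes and 5.62 FPKM in controls (limma adjusted p = 0.0141), while Gm16253 averaged 1.85 FPKM with exosomes and 4.40 FPKM in controls (limma adjusted p = 0.0163). Gm17622 averaged 2.28 FPKM with exosomes and 8.06 FPKM in controls (limma adjusted p = 0.0188). The histone gene Hist1h3h averaged 1.89 FPKM with exosomes and 0.789 FPKM in controls and did not pass (limma adjusted p = 0.0945).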

How the data were processed

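The authors deposited FPKM values, 1 column per library, for genes they had called changed, per the name of the deposited file. Libraries were made with a SMARTer mRNA kit, per the labels' protocols. Aligner, counter, treatment of reads that map to several places, build, annotation and caller are not given in the sources used here. Groups and replicate numbers come from the titles.

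Identifiers were matched to GENCODE M21 (672 of 680). FPKM times exon length gave whole reads, within 0.02, in all libraries for 661 genes, both members included. Intervals on reads cover counting error only and take each read as a separate count. limma 3.58.1 (R 4.3.3) was fitted to log2(FPKM + 1) of all 680 genes, two-sided, with group as the only term and Benjamini-Hochberg adjustment. The fit was first checked on simulated data, with less spread between libraries than the members showed and changes placed at random. That check therefore cannot vouch for the adjusted p-values of these selected genes. Log2 differences on this scale understate changes of weak genes. Permutation tests used scipy 1.17.1, and copies were found among GENCODE transcripts with blastn 2.17.0 (E-value limit 1e-05). Alternatives are given under how the results depend on the processing.

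The members, gene lists and rules were chosen with earlier results of these data known. Named were the members, list members analysed, the 5 genes most like each member (without Gm and Rik models, clone-named loci, pseudogenes and Y-linked genes) and short coding genes. Sumo2 and Gm14794 were named after their values were seen.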

Additional observations from a re-analysis of the deposited data

How the results depend on the processing

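The log2 difference of mt-Atp8 was positive in all 13 alternatives and passed in none (limma adjusted p = 0.0538 to 0.356); leaving out 1 library gave 1.10 to 2.99. That of mt-Nd4l was positive in all 13 and passed in 8 (limma adjusted p = 0.0130 to 0.146). It was 1.73 with a pseudocount of 0.1 or 0.01 and with limma-voom on recovered reads (limma adjusted p = 0.0249, 0.0294 and 0.0130), 1.70 with the limit of 1 FPKM on the mean and with a trended and robust prior (0.0172 and 0.0232), and 1.85 after median centring (0.0484); leaving out 1 library gave 1.34 to 2.32. The cause of these changes of call was not tested. With a replicate block mt-Nd4l differed by 1.70 (limma adjusted p = 0.0452), mt-Atp8 by 2.20 (0.203), and their log2 ratio by 0.52. The block took the SE of mt-Nd4l from 0.60 to 0.34, while that of mt-Atp8 stayed at 1.25. The deviations of libraries sharing a number correlated at −0.13, 0.08 and −0.22, and the numbers were not taken to pair them. These correlations run over genes selected for a group difference, so they cannot exclude pairing. The log2 ratio differed by −0.34 to 1.68 when 1 library was left out, the −0.34 without exosome library 1.

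Over the table, 403 genes were called, 611 with a pseudocount of 0.01, 624 with limma-voom, 201 with the replicate block, 131 of 138 with the FPKM limit, and 164 to 356 with 1 library left out. Median centring took calls to 212 higher and 112 lower, against 105 and 298. With 3 libraries a group, 1 library decides much of each mean.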
